A study of Triticum aestivum with 6 samples.

Results

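The 100 reference genes of wheat whose expression rose most steeply from the outer to the inner endosperm are described here. They were chosen from 110790 reference genes by their values in 6 RNA libraries. A gene was eligible when its mean in the innermost endosperm (IE) region was at least 5 FPKM, which 11723 genes reached and which are called expressed genes below, and when each IE library lay above each library of the remaining endosperm (RE) region. Among the expressed genes, 583 were separated in this way (4.97%), and the 100 of them with the largest mean log2(FPKM + 1) in IE minus that in RE were taken as members. FPKM is the number of sequenced fragments on a gene divided by transcript length and by library total. The IE values and the RE values therefore chose the members, so their differences are given as descriptions, with no test.

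The libraries come from endosperm of field-grown winter wheat, cultivar Zhoumai36, 25 days after anthesis. After removal of the pericarp, the middle section of each grain was divided by hand into the central lobe zones (IE, 3 libraries) and everything around them (RE, 3 libraries). Because the aleurone was not taken off, RE contains it beside starchy cells, and the contrast is between a part and a mixture. The study grew plants at a low and a high nitrogen supply, but the labels of these libraries give only the region and a replicate number, and the nitrogen level was left unassigned. The other libraries of the study were not analysed here. The study describes its replicates as biological, and the labels do not say which plants or plots each came from.

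The starchy endosperm is the storage tissue of the wheat grain. Its cells fill with starch and with gluten proteins, the gliadins and glutenins, and die as the grain matures, while the surrounding aleurone layer stays alive and later secretes enzymes that mobilise the reserves. Bread wheat carries the subgenomes A, B and D, so most genes have corresponding copies, called homoeologs, at matching places on the chromosomes of a group. Genes that lie next to each other and arose by local duplication are called tandem neighbours. The identifiers used here give the chromosome, and the number behind the letter G follows the order of the genes along it in steps of 100. None of the identifiers matched the RefSeq table at hand, so names are given only for the genes that the study itself names, and no coordinates or sequences are shown.

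The members were mostly genes of moderate level. Their IE means ran from 5.11 FPKM for TraesCS5A01G398700 to 3194 FPKM for TraesCS2D01G515500, with a median of 12.2 FPKM, close to the median of 11.5 FPKM over all expressed genes. Of the members, 48 had an IE mean under 10 FPKM, 40 lay between 10 and 50 FPKM, and 12 reached 50 FPKM. The median RE mean was 3.76 FPKM.

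The difference in mean log2(FPKM + 1), IE minus RE, ran from 1.02 to 2.48 with a median of 1.32, against a median of -0.08 over the expressed genes. On the FPKM scale all 100 group means differed at least 2-fold, 53 at least 3-fold and 11 at least 5-fold. A mean difference of 2-fold together with separated libraries was met by 148 of the expressed genes (1.26%). In these bulk samples, fewer cells of a type in RE and less RNA per cell cannot be told apart. The members together took 0.342%, 0.779% and 0.373% of the summed FPKM in IE replicates 1, 2 and 3, and 0.136%, 0.217% and 0.201% in RE replicates 1, 2 and 3. The most abundant member, TraesCS2D01G515500, had a large part in these shares. Without it the members summed to 2421, 2936 and 2774 FPKM in IE replicates 1, 2 and 3. In RE replicates 1, 2 and 3 they then summed to 977, 912 and 792 FPKM.

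In the deposited values the opposite direction was more frequent. Every IE library lay below every RE library for 1467 of the expressed genes (12.5%). This excess depended on the scaling: after median-ratio scaling of the libraries, an alternative added after seeing the data, 880 of 11914 expressed genes were separated with IE higher (7.39%) and 905 with IE lower (7.60%). Of the 51830 genes that averaged 0.5 FPKM or more, 2256 were separated with IE higher (4.35%) and 6188 with IE lower (11.9%). After the scaling, 3522 of 51539 genes at that level were separated with IE higher (6.83%) and 4453 with IE lower (8.64%). There the excess shrank but remained. In limma over the 51830 genes as deposited, 0 genes passed an adjusted p of 0.05 with a 2-fold change (0%). The smallest adjusted p was 0.359, while 2980 genes passed an unadjusted p of 0.05 with a 2-fold change. Of these, 850 were higher in IE (1.64%) and 2130 lower, which became 1318 and 1873 with median-ratio scaling. Voom on the recovered fragments called 0 genes as well, with 2949 at an unadjusted p.

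**Figure D1:**
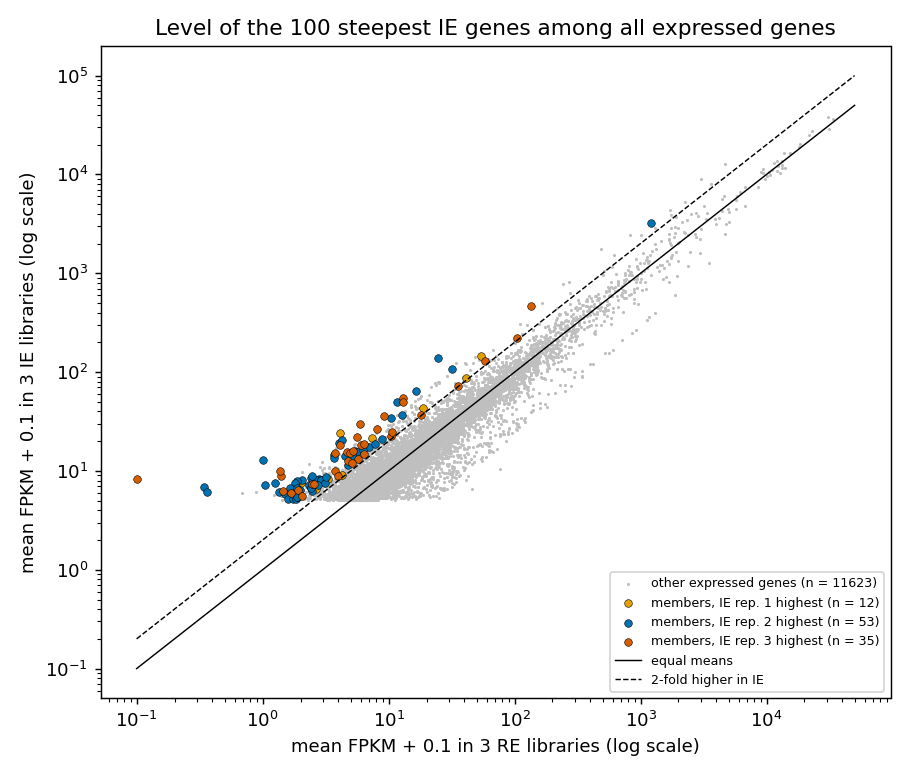
Mean FPKM in the 3 IE libraries against mean FPKM in the 3 RE libraries, each plus 0.1 on log scales, for 11723 expressed genes (grey) and the 100 members (coloured by the IE replicate with the highest value). The members lie above the 2-fold line at IE means from 5.11 to 3194 FPKM, and some other expressed genes are more abundant. TraesCS7B01G128800 stands at the left edge with 0 FPKM in RE.

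The steepest gene was TraesCS2A01G203400. In the order of replicates 1, 2 and 3, which is kept from here on, it had 4.08, 29.2 and 5.09 FPKM in IE against 0, 1.64 and 1.06 FPKM in RE. IE replicate 2 was thus far above the other IE libraries, and the difference was 2.48. This is the shortest member, at 225 bases, and its RE values rest on 0, 7 and 5 fragments.

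TraesCS2B01G546700 had 29.5, 14.2 and 29.1 FPKM in IE and 5.86, 2.81 and 3.40 FPKM in RE, a difference of 2.31. Here IE replicate 2 was the lowest IE library, and still 2.43 times the highest RE library. TraesCS2D01G515400 followed with 53.6, 281 and 80.1 FPKM in IE and 8.69, 38.2 and 26.4 FPKM in RE, a difference of 2.30. Replicate 2 was the highest library in both regions.

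TraesCS5B01G407800 had 26.0, 11.5 and 51.5 FPKM in IE against 10.8, 5.55 and 1.26 FPKM in RE, a difference of 2.22. The regions almost met, the lowest IE library being 1.06 times the highest RE library. TraesCS1D01G101900 had 8.77, 7.09 and 10.2 FPKM in IE and 1.51, 1.47 and 0.905 FPKM in RE, a difference of 2.08. It had the widest gap of any member expressed in all libraries, its lowest IE library being 4.70 times its highest RE library, and its replicates lay close together in IE.

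TraesCS7B01G128800 reached the minimum level through a single library. It stood at 1.20, 0.332 and 22.8 FPKM in IE, which are 19, 7 and 308 fragments, and had 0 fragments in each RE library. With 3 fragments per RE library as the limit that a count of 0 allows, its IE mean was at least 50.1-fold higher. IE replicate 3 was 68.6 times IE replicate 2, the widest spread within IE of any member.

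TraesCS6B01G347100 and TraesCS6D01G260100 were also steep through a single library. The first had 1.38, 17.5 and 1.69 FPKM in IE and 0.181, 0.340 and 0.205 FPKM in RE, which gave the largest ratio of means among members present in RE, 28.3-fold. The second had 1.79, 14.7 and 1.44 FPKM in IE and 0.309, 0.386 and 0.0875 FPKM in RE, a ratio of 23.0-fold. IE replicate 2 was about an order of magnitude above the other IE libraries in both. Yet these others also lay 3.74 times or more above the highest RE library. The RE values, and so these ratios, rest on only 3, 6 and 4 fragments in the first gene and 3, 4 and 1 in the second.

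The other genes among the 10 steepest were TraesCS2D01G339700, TraesCS7A01G488600 and TraesCS4B01G064300. TraesCS2D01G339700 had 15.1, 8.43 and 21.3 FPKM in IE and 7.98, 2.0 and 1.05 FPKM in RE, so that RE replicate 1 nearly reached IE replicate 2. TraesCS4B01G064300 had 7.398, 36.9 and 13.1 FPKM in IE and 0.936, 6.15 and 4.78 FPKM in RE. In the former the second IE library was lowest, and in the latter it was highest.

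**Figure D2:**
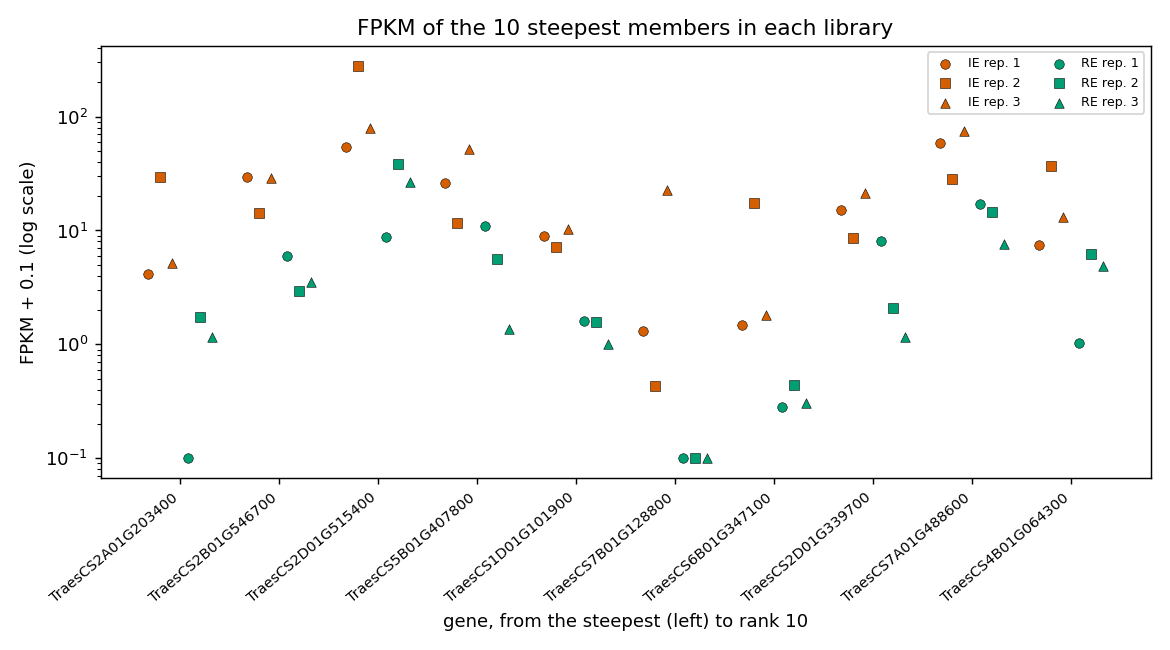
FPKM plus 0.1 on a log scale for the 10 steepest members, with IE libraries in orange and RE libraries in green and a symbol for each replicate. IE replicate 2 (orange square) is the highest IE library in 4 of the genes, TraesCS2A01G203400, TraesCS2D01G515400, TraesCS6B01G347100 and TraesCS4B01G064300, and the lowest in the other 6.

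Among the most abundant members, TraesCS2D01G515500 was by far the highest. It had 1577, 6368 and 1635 FPKM in IE and 622, 1536 and 1484 FPKM in RE. The lowest IE library was only 1.03 times the highest RE library, so its membership rests on a narrow gap. TraesCS3B01G515100 was next with 546, 303 and 552 FPKM in IE and 197, 103 and 104 FPKM in RE, where the gap was 1.54 times.

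TraesCS3A01G303300 was the most even member. Its IE values were 218, 209 and 239 FPKM, and its RE values were 122, 87.0 and 107 FPKM. The highest IE library was 1.14 times the lowest, and the means were 222 ± 15.4 FPKM in IE and 105 ± 17.5 in RE (FPKM, SD, n = 3).

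TraesCS7D01G512700 had 197, 104 and 136 FPKM in IE against 52.5, 69.2 and 39.99 FPKM in RE. TraesCS7A01G438100 stood at 127, 116 and 149 FPKM in IE and 55.6, 55.04 and 63.0 FPKM in RE. The lowest IE library was 1.502 times the highest RE library in the first and 1.85 times in the second. TraesCS5A01G151500 differed, with 54.7, 190 and 75.0 FPKM in IE and 11.8, 49.8 and 33.9 FPKM in RE, since IE replicate 1 was only 1.098 times RE replicate 2.

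TraesCS5B01G358600 had 112, 57.5 and 91.5 FPKM in IE and 48.4, 40.2 and 34.2 FPKM in RE. In TraesCS7D01G088600 the IE values were 76.0, 60.3 and 82.6 FPKM and the RE values 42.8, 32.8 and 31.02 FPKM. TraesCS2D01G348700 stood at 34.6, 119 and 39.9 FPKM in IE and at 6.38, 28.5 and 14.3 FPKM in RE. IE replicate 2 was thus lowest in the first and the second and highest in the third.

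The gap between the regions was narrow for most members. The lowest IE library was under 1.5 times the highest RE library in 70 members and under 1.1 times in 19, with a median of 1.31. The narrowest gap was that of TraesCS5A01G407700, at 1.01 times, with 8.30 FPKM in IE replicate 1 and 8.21 FPKM in RE replicate 2. Only 11 members had a gap of 2 times or more, among them TraesCS7D01G224000 with 37.3, 24.5 and 45.7 FPKM in IE and 10.8, 6.04 and 10.6 FPKM in RE.

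Counting depth limits the low members. Behind the values of members lay between 7 and 63209 fragments in an IE library and between 0 and 14167 in an RE library. For 19 members an RE library held under 10 fragments, and 98 of the 100 were above 0 in every library. TraesCS2A01G203400 and TraesCS7B01G128800 were the exceptions. The totals of the libraries were 13959933 to 21766392 fragments on genes.

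At the edge of the set, TraesCS5B01G068200 and TraesCS7D01G088600 held ranks 99 and 100 with differences of 1.03 and 1.02. TraesCS1D01G177700 and TraesCS3A01G506200 at the next ranks, just outside, both stood at 1.01. The edge therefore cuts through a continuous range of values.

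The study names 6 of the members. These are regulators and enzymes of protein breakdown. The bZIP transcription factors, which bind DNA through a basic region next to a leucine zipper, were represented by TraesCS7B01G391800, called TabZIP1, and TraesCS7D01G475100. TabZIP1 had 28.4, 15.4 and 35.2 FPKM in IE and 11.7, 7.54 and 4.71 FPKM in RE, a difference of 1.61. TraesCS7D01G475100 had 54.6, 22.6 and 73.0 FPKM in IE and 18.7, 12.8 and 7.06 FPKM in RE, a difference of 1.82. Both had IE replicate 3 highest and RE replicate 3 lowest.

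TraesCS2B01G217500, called TaGRAS, belongs to the GRAS proteins, a plant family of transcriptional regulators. It stood at 3.90, 7.64 and 5.64 FPKM in IE and at 0.944, 1.68 and 1.64 FPKM in RE, a difference of 1.45. Its lowest IE library was 2.32 times its highest RE library, one of the wider gaps among the members.

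Serine-type endopeptidases cut proteins inside the chain by means of a serine in their active site. TraesCS3B01G515100, described above, was the most abundant of these with 467 ± 142 FPKM in IE and 134 ± 53.8 in RE (FPKM, SD, n = 3). TraesCS4D01G076000 had 8.62, 6.71 and 7.65 FPKM in IE and 2.47, 3.77 and 1.77 FPKM in RE, and TraesCS5A01G526000 had 5.52, 11.5 and 7.67 FPKM in IE and 4.22, 2.58 and 1.39 FPKM in RE. Their differences were 1.81, 1.27 and 1.33.

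Other endopeptidases that the study names lay outside the set. TraesCS4B01G077600 was separated but less steep, with 11.4 ± 3.11 FPKM in IE and 5.28 ± 0.514 in RE (FPKM, SD, n = 3) and a difference of 0.96. By the alignment of gene lengths described below it is the candidate counterpart of TraesCS4D01G076000. TraesCS1D01G395200 at 1.17 FPKM and TraesCS1A01G188900 at 2.90 FPKM in IE were under the minimum level. For storage proteins named by the study, the gliadin TraesCSU01G153800 had 42.3 ± 9.51 FPKM in IE and 23.6 ± 2.26 in RE (FPKM, SD, n = 3), and the globulin TraesCS4D01G171800 had 249 ± 133 FPKM in IE and 425 ± 106 FPKM in RE. The globulin TraesCS7D01G351300 was low, with 2.86 ± 2.96 FPKM in IE against 3.86 ± 2.44 FPKM in RE. No aleurone marker is paired with an identifier in the sources used here, so the part of the aleurone in RE was not tested.

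The members were also compared with the list of genes that the study gives as higher in IE at both nitrogen levels. Of the 28 reference genes on it, 18 are members, 64.3% of the listed reference genes and 18% of the members. Of the listed genes, 21 were expressed genes (0.179% of these) and 19 were among the 583 separated genes (3.26%), so 18 of the 19 that could be members are. The list required a difference at both nitrogen levels, so it rests in part on these same libraries, and the overlap is not independent evidence. Beside TabZIP1, TaGRAS, TraesCS3B01G515100, TraesCS4D01G076000, TraesCS3A01G303300, TraesCS7D01G512700, TraesCS2B01G546700, TraesCS1D01G101900 and TraesCS7A01G488600 they are TraesCS5D01G408100, TraesCS2B01G359400, TraesCS5B01G021000, TraesCS2B01G131200, TraesCS1A01G191800, TraesCS4A01G200300, TraesCS3D01G300100, TraesCS4D01G124700 and TraesCS5D01G033100.

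Of these last genes, TraesCS2B01G131200 had 13.3, 13.3 and 21.1 FPKM in IE and 5.07, 4.37 and 5.81 FPKM in RE, and TraesCS5B01G021000 had 9.28, 5.44 and 7.79 FPKM in IE and 2.55, 1.23 and 1.97 FPKM in RE. In both the lowest IE library was more than 2 times the highest RE library. TraesCS5D01G408100, with 14.1, 6.64 and 34.5 FPKM in IE and 5.92, 2.96 and 3.17 FPKM in RE, had a gap of 1.12 times. The differences of the other 6 lay between 1.21 for TraesCS5D01G033100 and 1.60 for TraesCS2B01G359400.

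The order of the replicates divided the members into unequal sets. IE replicate 2 was the highest IE library in 53 members, IE replicate 3 in 35 and IE replicate 1 in 12. Over the expressed genes the shares were 49.5%, 19.7% and 30.8%, and over the 583 separated genes 30.9%, 38.1% and 31.05%. Among the 100 steepest, IE replicate 2 was thus highest more often than among all separated genes. Its share was near that of all expressed genes, however, and so not particular to the members. IE replicate 1 was highest less often than in either background. These are counts from the libraries that chose the members, and no test was made. IE replicate 2 also had the highest total, 21766392 fragments, and the 100 genes at the top of its table held 52.5% of all FPKM, against 60.2% and 62.8% in IE replicates 1 and 3 and 53.1% to 56.2% in RE. The part of depth and composition in the order was not tested.

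A single order of all 6 libraries was shared by 30 members: IE replicate 2, IE replicate 3, IE replicate 1, RE replicate 2, RE replicate 3 and RE replicate 1, from high to low. Among the 583 separated genes it was found in 48 (8.23%), these 30 included. The next most frequent order, in 14 members, was IE replicate 3, IE replicate 1, IE replicate 2, RE replicate 1, RE replicate 2 and RE replicate 3. No share of this second order among the separated genes is given, so it stands as a count within the members only.

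In the set with IE replicate 2 highest, the other libraries also had a frequent order. IE replicate 1 was the lowest IE library in 44 of the 53, RE replicate 1 the lowest RE library in 37 and RE replicate 2 the highest RE library in 40, which are 83.0%, 69.8% and 75.5%. Among the 5805 expressed genes with IE replicate 2 highest the shares were 41.2%, 52.0% and 27.2%, and among the 180 separated ones 59.4%, 51.1% and 47.2%. Relative to the mean of each gene, the median log2(FPKM + 1) was 1.52 in IE replicate 2 and only 0.11 and 0.38 in IE replicates 1 and 3, and it was -1.08, -0.29 and -0.67 in RE replicates 1, 2 and 3. The highest IE library was a median of 3.31 times the lowest. The median IE mean of this set was 8.02 FPKM and its median gap between the regions 1.21 times.

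In the set with IE replicate 3 highest, IE replicate 2 was the lowest IE library in 29 of the 35, RE replicate 1 the highest RE library in 26 and RE replicate 3 the lowest in 20, which are 82.9%, 74.3% and 57.1%. Among the 2313 expressed genes with IE replicate 3 highest the shares were 78.9%, 63.1% and 39.6%, and among the 222 separated ones 71.2%, 50.5% and 40.5%. The centred medians were 0.58, 0.25 and 1.21 in IE replicates 1, 2 and 3 and -0.29, -0.88 and -0.92 in RE replicates 1, 2 and 3. The spread within IE was smaller, a median of 2.01 times, the median IE mean was 15.5 FPKM and the median gap 1.41 times. TabZIP1, TraesCS7D01G475100 and TraesCS3B01G515100 are in this set.

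The 12 members with IE replicate 1 highest were the most even, with a median of 1.66 times between the highest and the lowest IE library and a median gap of 1.51 times. TraesCS7D01G512700, TraesCS2B01G546700 and TraesCS4D01G076000 belong to them. Of the 18 members on the list of the study, 5 were in this set, 2 in the set with IE replicate 2 highest and 11 in the set with IE replicate 3 highest. Over all members the highest IE library was a median of 2.57 times the lowest, against 1.56 times over the expressed genes and 1.36 times over the 583 separated genes. At the median the members thus varied more between IE libraries than either background. The rule ranks genes by these same values, and a single high IE library raises the rank. The wider spread is therefore favoured by the choice and is given as a description only.

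Single libraries had a large part in the choice. With the 100 steepest genes chosen again without IE replicate 1, 28 of the members were kept, without IE replicate 2 51, without IE replicate 3 66, without RE replicate 1 64, without RE replicate 2 28 and without RE replicate 3 79. Without IE replicate 2, 33 of the 35 members with IE replicate 3 highest were kept but only 8 of the 53 with IE replicate 2 highest. TraesCS2A01G203400 and TraesCS6B01G347100 were lost without IE replicate 2, and TraesCS7B01G128800 without IE replicate 3. Leaving out a library also lets more genes be separated, between 755 and 1493 in place of 583, which enter the ranking beside the members.

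**Figure D3:**
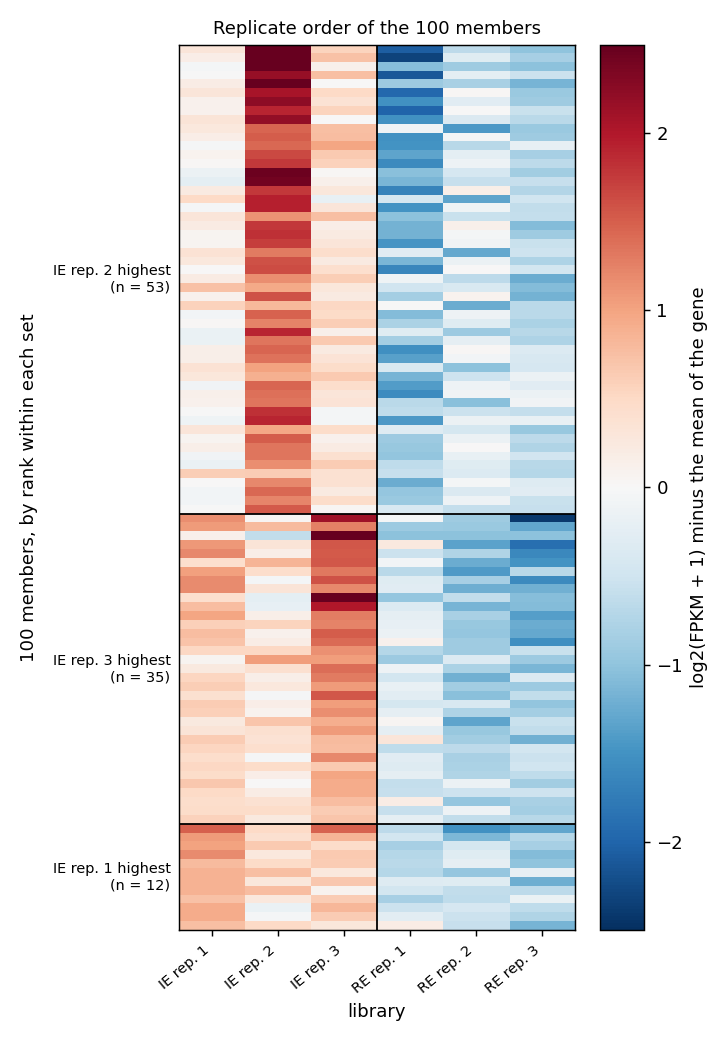
Log2(FPKM + 1) minus the mean of each gene (colour, red high and blue low, cut at 2.5 in size) for the 100 members in the 6 libraries, grouped by the IE replicate with the highest value. The 53 genes of the upper block are darkest in IE replicate 2 and mostly lowest in RE replicate 1, and the 35 of the middle block are darkest in IE replicate 3 and mostly lowest in RE replicates 2 and 3.

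The members were shorter than the background. Their median transcript length, recovered from the FPKM values, was 796.5 bases against 984 bases for the expressed genes and 882 bases for the 583 separated genes. Lengths ran from 225 bases in TraesCS2A01G203400 to 2838 bases in TraesCS7A01G298600. Under 500 bases were 30% of the members, 17.4% of the expressed genes and 21.3% of the separated genes. The lengths were multiples of 3, as coding lengths are, in 93% of the members, 81.9% of the expressed genes and 85.4% of the separated genes.

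Few members lay close to each other. Another member within 10 gene steps on the chromosome was found for 6 members, in 3 pairs. Of the other 11623 expressed genes, 2.09% had a member that near. The only adjacent pair was TraesCS2D01G515400 and TraesCS2D01G515500, with nearly equal lengths of 459 and 456 bases and both with IE replicate 2 highest. Their levels differed widely, with IE means of 138 and 3194 FPKM.

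In the other pairs, 4 gene steps apart, lengths differed. TraesCS1D01G101500, at 972 bases, had 13.8, 11.0 and 19.01 FPKM in IE and 6.07, 6.34 and 6.39 FPKM in RE, and it shared the order of its IE replicates with TraesCS1D01G101900 at 1899 bases. TraesCS6D01G047900 had 5.57, 3.16 and 9.99 FPKM in IE and 2.496, 0.958 and 0.579 FPKM in RE. Its partner TraesCS6D01G048300 had 6.95, 47.1 and 7.99 FPKM in IE and 3.25, 5.52 and 3.79 FPKM in RE, so that IE replicate 2 was the lowest IE library in the first and the highest in the second.

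The surroundings of the members were not themselves steep. The 243 other expressed genes within 10 gene steps of a member had a median difference of -0.08, the same as all expressed genes, and 15 of them (6.17%) were separated with IE higher, beside 4.97% of all expressed genes.

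Homoeologs could not be taken from annotation. Candidate counterparts were found by aligning the order of transcript lengths along the chromosomes of a group and accepting aligned genes whose lengths differed by at most 10%. Of 8 pairs of genes that the study names with the same role on different subgenomes of a group, 6 were aligned in this way. The alignments of 4A with 4B and 4D were the weakest, with lengths within 1% for 28.8% and 32.2% of aligned pairs, against at least 44.6% in the other alignments. All counterparts below are therefore candidates. Whether reads were shared out among nearly identical copies is unknown, because no counting tool is named in the sources used here.

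A counterpart was found for 70 members, for 26 of them on both other subgenomes. In 5 pairs both genes were members, so that 10 of the 70 (14.3%) had a member as counterpart. Of the 8490 other expressed genes with a counterpart, 49 (0.577%) had a member as counterpart. The members were chosen on these libraries, and the counts are given without a test.

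The steepest pair was TraesCS7A01G488600 and TraesCS7D01G475100, the bZIP gene named above, at 756 and 744 bases. TraesCS7A01G488600 had 59.1, 28.4 and 74.5 FPKM in IE and 16.9, 14.5 and 7.52 FPKM in RE, so the copies were alike in level and in the order of all libraries. TabZIP1 on 7B lies 4 gene steps from their aligned 7B gene, TraesCS7B01G391400, which had means of 0.23 FPKM in IE against 0.25 in RE. With a recovered length of 1642 bases TabZIP1 was not itself accepted as the counterpart.

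TraesCS6B01G056800 and TraesCS6D01G048300 had equal lengths of 1488 bases. TraesCS6B01G056800 had 16.9, 111 and 21.9 FPKM in IE and 8.53, 13.1 and 13.1 FPKM in RE, and both genes had IE replicate 2 more than 5 times above the other IE libraries. Their counterpart on 6A, TraesCS6A01G041700, had 32.4, 151 and 49.2 FPKM in IE and 8.62, 38.0 and 22.7 FPKM in RE. Its difference of 1.61 exceeded those of the members, 1.53 and 1.57, but RE replicate 2 lay above IE replicate 1, and it was therefore not a member.

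TraesCS7A01G450400 had 21.4, 49.95 and 30.5 FPKM in IE and 16.3, 5.85 and 8.85 FPKM in RE, and its counterpart TraesCS7D01G439800 had 11.0, 22.0 and 11.7 FPKM in IE and 6.66, 2.86 and 5.54 FPKM in RE. The libraries had the same order in both, except that IE replicates 1 and 3 were nearly equal in the latter. The 7B counterpart TraesCS7B01G350200 was also separated, with a smaller difference of 0.67.

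TraesCS1A01G180700 had 2.61, 8.94 and 6.30 FPKM in IE and 0.299, 1.26 and 2.17 FPKM in RE, and TraesCS1B01G195500 had 5.06, 13.0 and 5.92 FPKM in IE and 1.12, 4.20 and 3.13 FPKM in RE. Their 1D counterpart by way of the 1B gene, TraesCS1D01G174800, was slightly lower in IE, with means of 6.70 FPKM in IE and 7.56 FPKM in RE. The last pair was TraesCS5B01G092500 with 3.42, 12.1 and 3.33 FPKM in IE and 0.696, 3.19 and 0.815 FPKM in RE, and TraesCS5D01G100100 with 4.16, 11.9 and 3.998 FPKM in IE and 0.932, 2.86 and 1.51 FPKM in RE. Replicate 2 was the highest in both regions in both genes.

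Further members lay near the counterpart of another member without being aligned to it. TraesCS7B01G128800 and TraesCS7D01G224000 both have 969 bases and the aligned 7D gene lies 1 gene step from the latter. TraesCS7B01G128800 had a mean of 8.10 FPKM in IE, nearly all from IE replicate 3, and its aligned 7D gene, TraesCS7D01G223900, 0.13 FPKM. TraesCS7D01G224000 had 35.8 ± 10.7 FPKM (SD, n = 3), and its aligned 7B gene, TraesCS7B01G129100, also with 969 bases, 1.76 FPKM. TraesCS6B01G420000 and TraesCS6D01G366200 both have 1038 bases and IE means of 18.5 and 13.1 FPKM, and TraesCS6A01G226200 and TraesCS6B01G255400 both have 390 bases and IE means of 5.15 and 5.498 FPKM. TraesCS7A01G438100 and TraesCS7D01G428400 lay 3 steps apart in the same sense, with 582 and 471 bases.

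Most counterparts were not members. The 83 counterparts outside the set had a median difference of 0.36, and 60 of them had a difference above 0. Of the 83, 15 were separated with IE higher and 13 were under 1 FPKM in IE. No background shares over counterparts of all levels are given, so these stand as counts only. Of the 49 counterparts with an IE mean of at least 5 FPKM, 9 were separated with IE higher, and the median was 0.56. With the 10 counterparts that are members counted too, 19 of 59 at that level were separated with IE higher. These 10 are separated by the rule. As a background, 29.4% of the 354 counterparts at that level of all separated genes were themselves separated with IE higher.

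Some members had a candidate counterpart, here the only one found, that was not steep. TraesCS5B01G407800, at 29.7 FPKM in IE, had a 5D counterpart, TraesCS5D01G412900, with 0.77 FPKM in IE and 2.99 FPKM in RE. TraesCS2B01G546700 had a 2D counterpart, TraesCS2D01G519700, at 0.43 FPKM in IE. For TraesCS7D01G364900, with 43.6 FPKM in IE and 18.6 FPKM in RE, the 7A counterpart TraesCS7A01G361100 had the opposite direction, with 8.64 FPKM in IE and 22.1 FPKM in RE.

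The median differences of the counterparts varied between the replicate sets, and the order of the sets depended on the level required. For members with IE replicate 2 highest, 43 counterparts outside the set had a median difference of 0.56, and 4 were under 1 FPKM. For members with IE replicate 3 highest, 29 counterparts had a median difference of 0.14, and 8 were under 1 FPKM. For those with IE replicate 1 highest, the median of 11 counterparts was 0.36. The sets also differed in how many counterparts reached 5 FPKM in IE. Among those that did, the medians were 0.68 over 32 counterparts, 0.40 over 11 and 0.22 over 6, for IE replicates 2, 3 and 1 highest. No test of these differences was made.

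A group of 10 counterparts outside the set had differences at least as large as that of rank 100. All 10 reached 5 FPKM and had IE replicate 2 highest. Their regions overlapped by construction, since a separated gene of this level and difference would be a member. In 8 of them IE replicate 1 lay below RE replicate 2. TraesCS2A01G513900, the counterpart of TraesCS2D01G515400, had 748, 3513 and 996 FPKM in IE and 142, 782 and 545 FPKM in RE. TraesCS2B01G542000, the counterpart of TraesCS2D01G515500, had 1067, 5117 and 1205 FPKM in IE and 320, 1059 and 1089 FPKM in RE. In both copies, as in the members they align to, IE replicate 2 was the highest IE library and RE replicate 1 the lowest RE library.

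The copies of TraesCS5D01G244900 were alike in the same way. The member had 4.73, 15.7 and 4.97 FPKM in IE and 0.552, 4.42 and 1.94 FPKM in RE. TraesCS5A01G238000 had 8.41, 28.3 and 8.25 FPKM in IE and 0.548, 10.6 and 5.85 FPKM in RE, and TraesCS5B01G236500 had 8.11, 33.0 and 8.54 FPKM in IE and 0.703, 9.20 and 5.35 FPKM in RE. In all 3 copies replicate 2 was highest in both regions, and only in the 5D copy did IE replicate 1 exceed RE replicate 2.

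**Figure D4:**
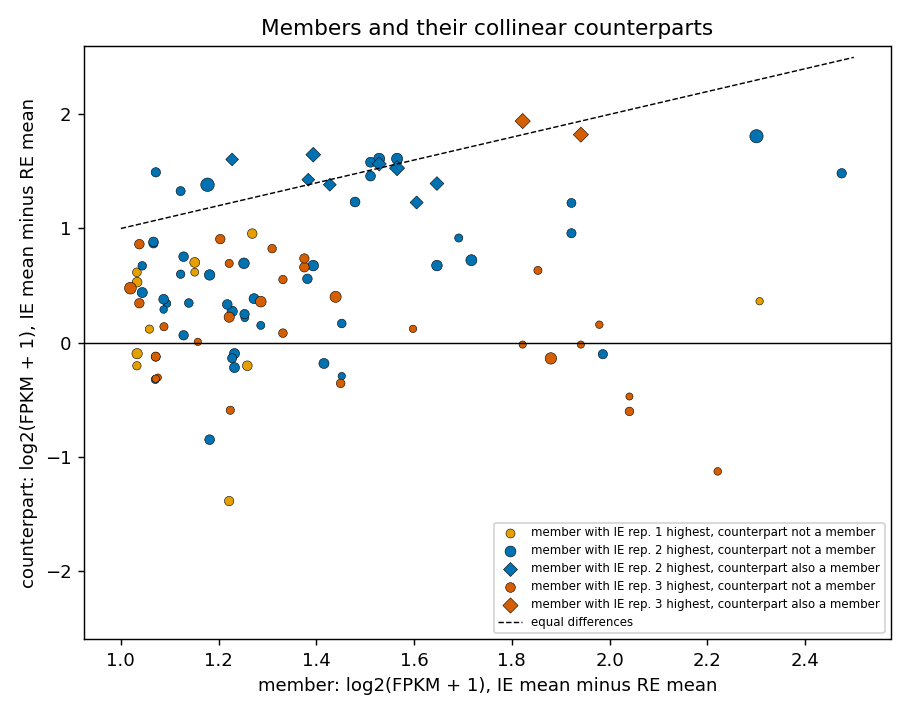
Difference in mean log2(FPKM + 1), IE minus RE, of candidate counterparts against that of the member each is aligned to, for 96 pairs with 93 counterparts, with larger symbols for a higher IE mean of the counterpart, colours for the IE replicate that is highest in the member, and diamonds for counterparts that are members too. The diamonds and the circles of 10 counterparts lie above 1.02, the value of rank 100, while the other 73 counterparts have a median of 0.29. Of all 83 outside the set, 60 are above 0, a count given without a background share.

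The members were spread over all 21 chromosomes. There were 10 members on 2D, 8 each on 5B and 7D and 7 each on 1A, 2B and 5D, and a single member on 4B. None of the 141 expressed genes without a placed chromosome was a member. By group, the members made up 20 in group 2, 19 in group 5, 17 in group 7, 14 in group 6, 12 in group 1, 10 in group 4 and 8 in group 3, whereas the expressed genes had 15.9%, 16.4%, 14.8%, 10.9%, 13.8%, 12.6% and 14.4% in these groups. Group 3 thus held the fewest members with 14.4% of the expressed genes.

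The subgenomes A, B and D held 31, 30 and 39 members and 33.9%, 30.96% and 33.9% of the expressed genes. Of the members, 35% lay in the outer 20% of identifiers at either end of their chromosome, and of the expressed genes 34.1%. The distribution along the chromosome was thus close to the background on this scale.

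**Figure D5:**
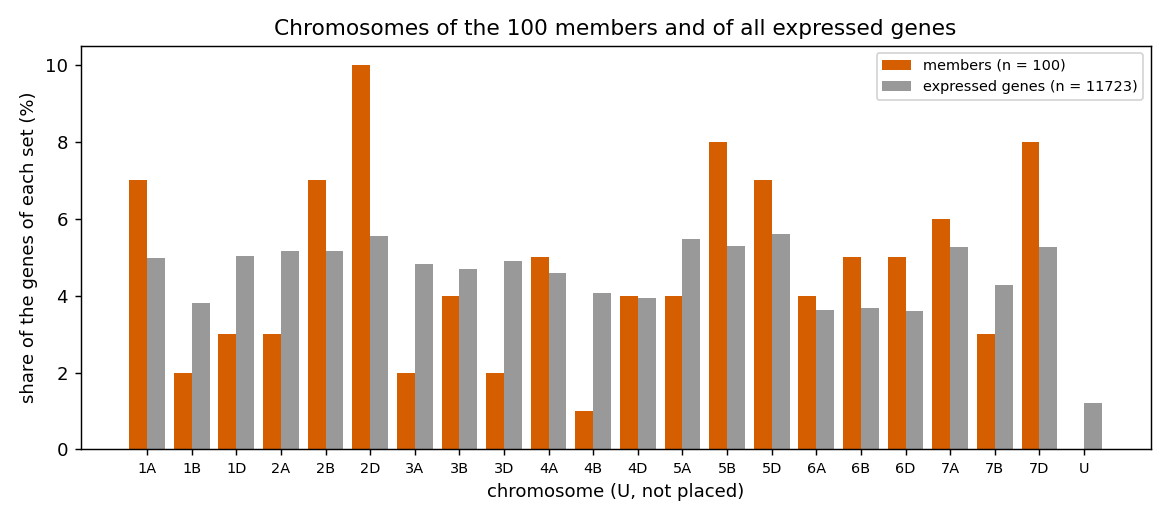
Share of the 100 members (orange) and of the 11723 expressed genes (grey) on each chromosome, in percent, with U for genes that are not placed. Chromosome 2D has the tallest member bar, 10% against 5.55% of expressed genes, and 4B the shortest among placed chromosomes, 1% against 4.07%.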

How the data were processed

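RNA of 3 IE and 3 RE libraries was sequenced by the authors, filtered with fastp and mapped with HISAT2 (processing notes and methods), and deposited as FPKM values per gene. Versions, the counting tool and the use of strand are not given in the sources used here. FPKM does not remove shifts in composition. Whole fragments, gene lengths and library totals were recovered from the FPKM steps, covering 99.4% to 99.5% of each total, and were used for depth, lengths and voom. The recovery, the length alignment (genes with at least 20 fragments) and limma were tested on simulated data. The simulation for limma had less spread than these libraries and large changes, so it does not show what limma could detect here. The simulation for the alignment had a shared gene order without rearrangements. All 127196 genes, including 16406 newly assembled ones, entered limma 3.58.1 (R 4.3.3; eBayes with a trend) on log2(FPKM + 0.1) if their mean reached 0.5 FPKM, with Benjamini-Hochberg adjustment. Python 3.11.15, numpy 2.4.6, pandas 2.3.3, numba 0.67.0 and matplotlib 3.10.9 were used. Members and lists were chosen with earlier results of these data known. Named are the 10 steepest and the 10 most abundant members, those the study names or lists, those in neighbour or counterpart sets, the ranks around the edge of the set and the ends of ranges. Counterparts outside the set, and members beyond that rule, were picked after their values were seen. Alternatives changed the pseudocount, scaling, minimum level, overlap rule, libraries and length limits.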

Additional observations from a re-analysis of the deposited data

How the results depend on the processing

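Of the 100 members, 52 stayed among the 100 steepest with a minimum IE mean of 10 FPKM and 41 when overlap of the regions was allowed. Between 71 and 96 stayed with a pseudocount of 0.1 or 5, the ratio of means, the TPM scale, median-ratio scaling, a minimum of 1 FPKM, or with newly assembled genes admitted. Leaving out 1 library kept 28 to 79. The median difference of 1.32 became 1.60 with a pseudocount of 0.1, 0.87 with 5 and 1.63 as log2 ratio of means, differences that the pseudocount makes by construction, and lay between 1.18 and 1.55 with a library left out. Median-ratio scaling raised the median of all expressed genes by 0.11 and that of the members to 1.41, and 68 members of the set chosen that way had IE replicate 2 highest. The number of separated expressed genes went from 583 to 880 with IE higher and from 1467 to 905 with IE lower. Limma called 0 genes in each alternative, with smallest adjusted p-values from 0.0566 (without IE replicate 2) to 0.628. At an unadjusted p it gave 1437 genes with a pseudocount of 1, 4821 with no filter and 5161 without IE replicate 2. Whether replicate numbers pair the regions is unknown, and correlations among so few libraries cannot settle it. The correlations of same-numbered libraries were 0.11, 0.06 and -0.20, and those of the other pairs ran from -0.24 to 0.25. With the replicate block 0 genes were called, with 3357 at an unadjusted p. With a length limit of 5% in place of 10%, 6 members were in counterpart pairs in place of 10, and with 20% there were 10. These length limits, the scaling of the separated counts, the counts with IE replicate 2 highest and the counts at an unadjusted p were added after seeing the data. The planned limits on identifier distance for homoeologs were not run. A neighbour limit of 5 or 20 gene steps in place of 10 left 6 members with a neighbour.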

Other observations

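Newly assembled genes were outside the rule. Had they been admitted, 5 would have entered the 100. The highest of these, at rank 36, had 171, 154 and 218 FPKM in IE replicates 1 to 3 against 98.97, 44.8 and 55.5 FPKM in RE, and the one at rank 55 had 85.4, 66.8 and 110 FPKM in IE against 50.8, 32.7 and 23.4 FPKM in RE. Both were more abundant than most members and had IE replicate 3 highest. The other 3, with IE values between 3.20 and 12.8 FPKM, had IE replicate 2 highest. The files do not pair these genes with names.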
